A study of Mus musculus with 4 samples.

Results

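Growth factors of the epidermal growth factor (EGF) family and the ErbB receptors they bind were compared between bulge basal cells and total epidermis of mouse back skin. The set named 6 ligand genes (Epgn, Areg, Ereg, Hbegf, Btc and Tgfa) and 3 receptor genes (Egfr, Erbb2 and Erbb3). Members were found by the gene symbol of the platform annotation, and each gene is represented by its brightest probe set, taken by mean log2 signal across the 4 arrays. Of the 9 members, 8 had a probe set under their symbol, with 17 probe sets in all, among 12393 genes tested. Areg was not analysed here.

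Both groups consisted of living GFP-positive cells sorted by flow cytometry from back skin of K14-GFP-actin mice at postnatal day 49, a time at which hair follicles rest in telogen. In these mice a fusion of GFP and actin marks cells in which the keratin 14 promoter is active, chiefly basal keratinocytes. The bulge basal group (2 arrays) held GFP-positive cells with high α6 integrin and high CD34 on their surface, which marks the basal layer of the hair follicle bulge, where stem cells of the follicle reside. The total epidermis group (2 arrays) held all GFP-positive cells, bulge cells included, so each difference sets bulge basal cells against a mixture that contains them. No label says whether replicates came from separate or pooled animals, so p-values reflect how far these particular samples vary, and that variation may be technical. The deposited values were probe set signals on Affymetrix arrays, on a linear scale. Every difference below is bulge basal minus total epidermis on the log2 scale of that signal.

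EGF family ligands are made as transmembrane precursors, and proteases of the ADAM family release them from the cell surface. A released ligand brings ErbB receptors together in pairs, which switches on the RAS-MAPK and PI3K-AKT routes inside the cell. In skin this system is known for its part in keratinocyte growth, migration and hair follicle cycling. Erbb2 binds no known ligand and works as a partner, while Erbb3 has a very weak kinase and signals through its partners.

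Epgn, Ereg, Areg and Btc are neighbours in that order on mouse chromosome 5, with no other protein-coding gene between them in the RefSeq annotation of GRCm38.p6. The promoters of 5 of the 8 measured members were in the RefSeq table of that build, each covering 250 bases before and 50 bases after the annotated start. The windows of the neighbours Epgn (chr5:91027267-91027566, plus strand) and Btc (chr5:91402945-91403244, minus strand) are shown because their differences between the groups were unlike, and that of the receptor Egfr (chr11:16751953-16752252, plus strand) because the ligands of both genes bind its product. Capitals mark TATAAA and GGGCGG on either strand.
Epgn: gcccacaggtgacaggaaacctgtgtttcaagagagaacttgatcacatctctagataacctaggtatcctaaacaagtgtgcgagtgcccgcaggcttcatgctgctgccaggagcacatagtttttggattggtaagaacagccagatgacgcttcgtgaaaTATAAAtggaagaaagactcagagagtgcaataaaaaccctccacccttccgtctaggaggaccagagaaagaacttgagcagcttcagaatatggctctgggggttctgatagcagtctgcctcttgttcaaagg
Btc: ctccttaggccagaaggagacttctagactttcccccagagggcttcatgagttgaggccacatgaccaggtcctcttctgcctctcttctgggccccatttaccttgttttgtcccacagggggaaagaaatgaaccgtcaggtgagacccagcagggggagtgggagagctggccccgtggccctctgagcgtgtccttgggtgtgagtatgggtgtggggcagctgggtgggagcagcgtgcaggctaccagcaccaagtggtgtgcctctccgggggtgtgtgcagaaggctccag
Egfr: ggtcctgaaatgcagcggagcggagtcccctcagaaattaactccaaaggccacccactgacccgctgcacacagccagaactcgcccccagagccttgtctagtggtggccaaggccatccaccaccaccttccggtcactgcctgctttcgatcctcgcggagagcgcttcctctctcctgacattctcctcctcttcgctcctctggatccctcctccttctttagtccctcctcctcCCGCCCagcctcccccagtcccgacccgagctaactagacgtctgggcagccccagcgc

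The Epgn window held TATAAA on the gene's strand, with its first base at position -86 from the start, and GGGCGG was not in it. The first motif, TATAAA, occurred on the gene's strand in 8.32% of 32851 promoter windows and on either strand in 13.6%. None of the other 4 members' windows held it. The Egfr window held GGGCGG on the opposite strand at position -9, and the Btc window held neither. GGGCGG was present on either strand in 35.7% of all windows. GC content was 47.3% for Epgn, 60.3% for Btc and 62.3% for Egfr, against a median of 52.7% over all windows. The motif TGANTCA, the core bound by AP-1 factors, was in none of the 5 windows and in 7.81% of all windows. These matches describe the letters of these windows alone.

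The sort was checked against marker genes first. All 8 bulge markers had both bulge basal arrays above both total epidermis arrays, with Cd34 signals of 15697 and 14034 in bulge basal cells, against 844 and 1144 in total epidermis. Krt15 had the smallest difference of the 8 (0.36) and was narrowly separated. Its signals were 29397 and 23725 in bulge basal cells, against 18548 and 22957 in total epidermis. Itga6, which encodes the α6 integrin of the gate, had signals of 3312 and 1693 in bulge basal cells, against 5642 and 3491 in total epidermis. Krt14, whose promoter drives the reporter, overlapped between the groups on its brightest probe set, while its other 2 probe sets were lower without overlap in bulge basal cells (differences of -0.65 and -2.42). Marker lists of T cells (7 of 7 genes) and of Langerhans cells and macrophages (8 of 8) were lower without overlap in bulge basal cells, and 5 of 7 infundibulum and isthmus markers were. Fcer1g, among the 8, was below background on all 4 arrays. Of all genes, 20.5% had both bulge basal arrays below both total epidermis arrays, and 18.0% had them above. No list had a gene at a signal of 0, and 4 of 6 fibroblast and 4 of 5 endothelial markers were below background on all 4 arrays. The fibroblast collagen gene Col1a2 was higher without overlap, with signals of 3852 and 1541 in bulge basal cells, against 343 and 286 in total epidermis, and Col1a1 overlapped between the groups. In bulk RNA, fewer cells of a type and less RNA per cell cannot be told apart. Signal ratios of 3' over 5' control probe sets overlapped between the groups: for Gapdh they were 15.8 and 10.3 on the bulge basal arrays, against 12.2 and 17.1 on the total epidermis arrays. For β-actin they were 5.65 and 10.9, against 5.14 and 7.955. Both controls thus had far more 3' than 5' signal on every array. The transferrin receptor control overlapped only narrowly (0.69 and 1.863, against 7.72 and 1.836).

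A background level was set at a signal of 150.0 (log2 of 7.23), the 95th percentile of 67 olfactory, vomeronasal and taste receptor genes. These genes were taken as mostly silent in skin, which was assumed and not tested. Of the 8 measured members, 6 were above it on all 4 arrays, and only Ereg and Erbb2 were not. A gene below it on any array of its dimmer group has a bound in place of a fold, its fitted log2 difference being no bound, and one below it on every array has no fold.

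In the limma fit on group alone, the principal test, 0 of 12393 genes passed an adjusted p of 0.05 (0%), and so 0 of 8 members did. At an unadjusted p under 0.05 it gave 1297 genes (10.5%), with 5.18% higher and 5.29% lower in bulge basal cells, among them 2 members, Epgn and Erbb3, both lower. A second limma fit, trended by intensity, let the expected spread depend on signal and called 134 genes (1.08%), 69 higher and 65 lower in bulge basal cells (0.557% and 0.524%). Epgn was the only 1 of the 8 members among them. Limited to the 7249 genes with a group mean above background, the principal fit called 222 (3.06%), with 1.43% higher and 1.63% lower, Epgn included. "Rose" and "fell" are used below only for genes called in the trended fit. Groups did not overlap for 5 of the 8 members, 3 with bulge basal below and 2 with it above, where 38.5% of all genes had groups that did not overlap, 20.5% with bulge basal below and 18.0% above.

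Among the ligands, Epgn stood out by its size. Epgn encodes epigen, a low-affinity but potent ligand of EGFR. It had signals of 329 and 214 in bulge basal cells, against 2475 and 2594 in total epidermis. Both bulge basal arrays were far below both total epidermis arrays, and all 4 lay above background, so the fold is measured on both sides. The means were 8.05 ± 0.44 in bulge basal cells and 11.31 ± 0.05 in total epidermis on the log2 scale (SD, n = 2 each). Epgn fell by 3.26 ± 0.36 on the log2 scale (SE, 95% interval -4.12 to -2.39), a 9.56-fold lower signal, and the trended limma fit gave an adjusted p of 0.0297. In the principal fit the same difference had an SE of 0.41, an interval of -4.30 to -2.21 and an adjusted p of 0.0817. Only 63 of the 12393 genes, Epgn included, had a difference at or below that of Epgn, and 46 of them had a group mean above background. The trended call was lost without either total epidermis replicate and kept without either bulge basal replicate. Calls over all genes depended on the arrays in the same way, so this was not particular to Epgn. The Epgn difference stayed between -3.57 and -2.95 in all of these fits.

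Markers of several other compartments were also lower in bulge basal cells. The summed signal of 7 infundibulum and isthmus markers was 8412 and 16379 in bulge basal cells, against 36517 and 45303 in total epidermis. Of these 7, 5 were lower and Sostdc1 higher without overlap. Krt79, a keratin of the follicle mouth, fell in the trended fit (difference -3.46, adjusted p of 0.0426). The summed signal of 6 sebaceous gland markers was 2454 and 6454 in bulge basal cells, against 7037 and 5082 in total epidermis, and these ranges overlapped. Of 6 suprabasal keratinocyte markers 2, Krt1 and Ivl, were lower without overlap, and the other 4 overlapped. Their summed signal was 22396.5 and 62459 in bulge basal cells, against 40190 and 61281 in total epidermis. These ranges overlapped, and bulge basal replicate 2 had the highest sum. Krt1 fell in the trended fit (difference -3.31, adjusted p of 0.0297), while Ivl was below background on all 4 arrays. Langerhans cell and macrophage markers summed to 1115 and 1542 in bulge basal cells, against 11465 and 12960 in total epidermis, and 7 T cell markers to 306 and 489 in bulge basal cells, against 2076 and 3505 in total epidermis. The part of these populations in the Epgn difference was not tested.

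**Figure D1:**
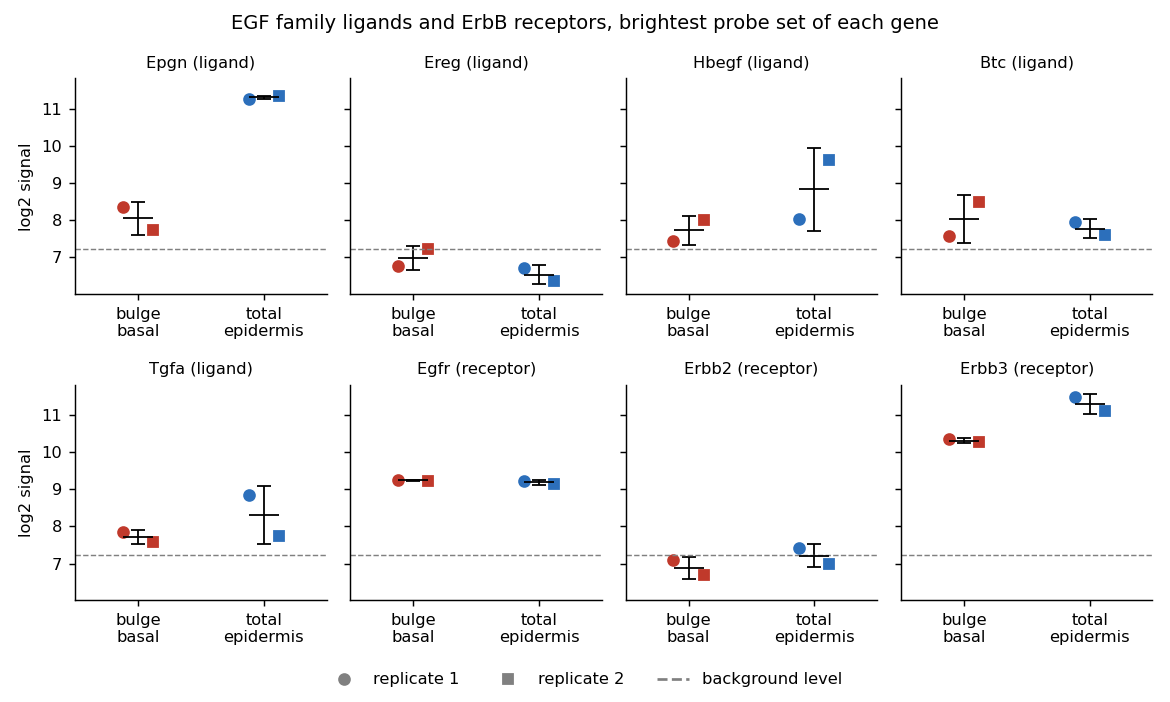
Log2 signal of the 8 measured members on each array (y axis), with bulge basal cells left of total epidermis; circles are replicate 1, squares replicate 2, the horizontal bar is the mean and the error bar its SD (n = 2), and the dashed line is the background level of 7.23. Epgn shows the widest gap, Erbb3 a smaller one, and the 2 total epidermis arrays of Hbegf and Tgfa lie far apart.

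Hbegf encodes heparin-binding EGF-like growth factor, a ligand of EGFR and ErbB4. Its signals were 175 and 257 in bulge basal cells, against 263 and 791 in total epidermis. The groups did not overlap, but the lower total epidermis array was almost level with the higher bulge basal array. The difference was -1.10 ± 0.64 (SE, 95% interval -2.72 to 0.51) and did not pass (adjusted p of 0.689 in the principal and 0.621 in the trended limma fit). A second Hbegf probe set had signals of 128 and 202 in bulge basal cells, against 253 and 416 in total epidermis, also without overlap, and its bulge basal replicate 1 was below background. The size of the Hbegf difference rested on total epidermis replicate 2: it was -0.31 without that array and -1.90 without total epidermis replicate 1.

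Tgfa encodes transforming growth factor α, the EGFR ligand whose loss in mice gives wavy hair. Its signals were 231 and 192 in bulge basal cells, against 460 and 214 in total epidermis. The groups overlapped, and the higher mean of total epidermis came from replicate 1. The difference was -0.57 ± 0.51 (SE, 95% interval -1.86 to 0.71, adjusted p of 0.847 in the principal limma fit), and it was -0.02 without total epidermis replicate 1. A second probe set above background on all 4 arrays gave signals of 214 and 175 in bulge basal cells, against 198 and 164 in total epidermis, a difference of 0.10 of opposite sign. The third was below background on all 4 arrays.

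Btc encodes betacellulin, a ligand of EGFR and ErbB4. Its signals were 190 and 358 in bulge basal cells, against 248 and 194 in total epidermis. The bulge basal arrays enclosed both total epidermis arrays, and the difference of 0.25 ± 0.47 (SE, 95% interval -0.95 to 1.45, adjusted p of 0.949 in the principal limma fit) did not pass. Its direction turned to -0.21 without bulge basal replicate 2. The other Btc probe set was below background on all 4 arrays.

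Ereg, the gene of epiregulin and the nearest protein-coding neighbour of Epgn in the direction of Btc, was below background on every array. Its signals were 108 and 149 in bulge basal cells, against 106 and 81.6 in total epidermis. No fold is given for it, and a difference was not detectable at these signals (adjusted p of 0.851 in the principal limma fit).

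Of the receptors, Erbb3 had the clearest separation. Its signals were 1304 and 1231 in bulge basal cells, against 2849 and 2210 in total epidermis. Both bulge basal arrays were below both total epidermis arrays and close to each other. The means were 10.31 ± 0.06 in bulge basal cells and 11.29 ± 0.26 in total epidermis on the log2 scale (SD, n = 2 each). The difference of -0.99 ± 0.38 (SE, 95% interval -1.96 to -0.01) corresponds to 1.98-fold lower signal and did not pass over all genes (adjusted p of 0.473 in the principal and 0.326 in the trended limma fit). Its other probe set was below background on all 4 arrays. With each array left out in turn the Erbb3 difference ranged from -1.17 to -0.80. The melanocyte markers Dct, Tyrp1 and Pmel were also lower without overlap in bulge basal cells (differences of -1.22 for Dct and -0.83 for Pmel, and at least 2.58-fold for Tyrp1). Of 6 melanocyte markers 5 were lower and Mitf higher without overlap, though Tyr, among the 5, was below background on all 4 arrays. The summed signal of the 6, mostly Mitf, was 6979 and 3185 in bulge basal cells, against 2733 and 1941 in total epidermis. The part of that cell type in the Erbb3 difference was not tested.

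Egfr, which encodes the receptor for all measured ligands of the named set, was level between the groups on its brightest probe set. Signals were 610 and 602 in bulge basal cells, against 600 and 563 in total epidermis. The bulge basal arrays lay above the total epidermis arrays by a margin that is small beside the spread of other genes: the difference was 0.06 ± 0.37 (SE) with a 95% interval of -0.87 to 0.99 (adjusted p of 0.985 in the principal limma fit). The interval leaves room for a change of nearly 1 log2 unit either way. A second probe set above background on all arrays had signals of 982 and 343 in bulge basal cells, against 559 and 308 in total epidermis, and a difference of 0.48 with overlap. It varied more between replicates than between groups. Of the other 3 Egfr probe sets, 1 was near background and 2 were below it on all 4 arrays.

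Erbb2 was close to background, with signals of 137 and 103 in bulge basal cells, against 172 and 128 in total epidermis. Only total epidermis replicate 1 was above the level, the groups overlapped, and no fold is given (difference -0.32, 95% interval -1.36 to 0.72, adjusted p of 0.913 in the principal limma fit). Erbb4, the remaining receptor of the family, was below background on all 4 arrays, with signals of 9.37 and 2.64 in bulge basal cells, against 17.2 and 3.48 in total epidermis.

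**Figure D2:**
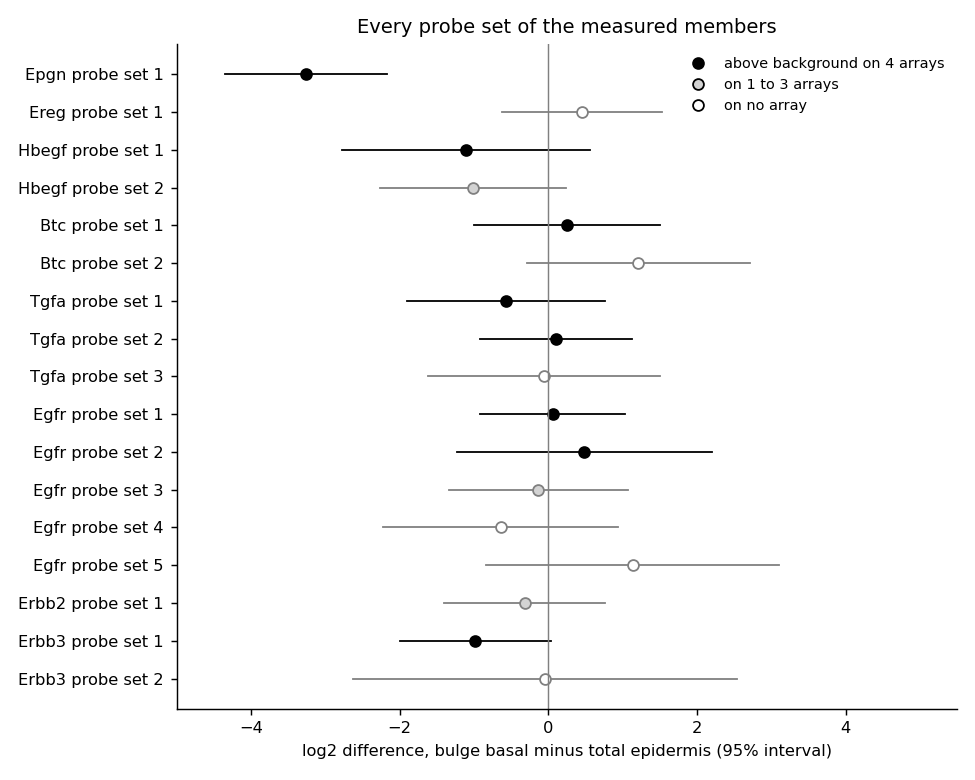
Log2 difference, bulge basal minus total epidermis (x axis), for each of the 17 probe sets of the measured members, numbered within a gene by falling mean signal; lines are 95% intervals from the limma fit over all probe sets with 1 symbol. The interval of Epgn lies wholly below 0, that of the brightest Erbb3 probe set ends just above 0, and those of the other 15 include 0.

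The genes whose course over the 4 arrays was nearest to that of each member were found by the root mean square distance of log2 signals, each gene centred on its own mean. For Epgn they were Fgf13 (distance 0.09) and Phldb2 (0.16). Both were picked for a course like that of Epgn, so their own calls in the trended fit add no support. Fgf13 had signals of 94.0 and 62.1 in bulge basal cells, both below background, against 623 and 661 in total epidermis. Phldb2 was below background on bulge basal replicate 2. For Erbb3 they were Aurka (0.03) and Hhex (0.04). Aurka and Hhex were each below background on both bulge basal arrays and on total epidermis replicate 2. For Egfr they were Ociad1 (0.02) and Rasa2 (0.03), for Hbegf Celf4 and Bcl2l15 (0.15 and 0.16), for Btc Ifngr2 and Zdhhc9 (0.03 and 0.03) and for Tgfa Sec61a2 and Prf1 (0.05 and 0.10). Bcl2l15 and Prf1 were below background on both bulge basal arrays. Bcl2l15 was also below it on total epidermis replicate 1, and Prf1 on total epidermis replicate 2. All of these distances rest on 4 arrays and are given as a description.

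**Figure D3:**
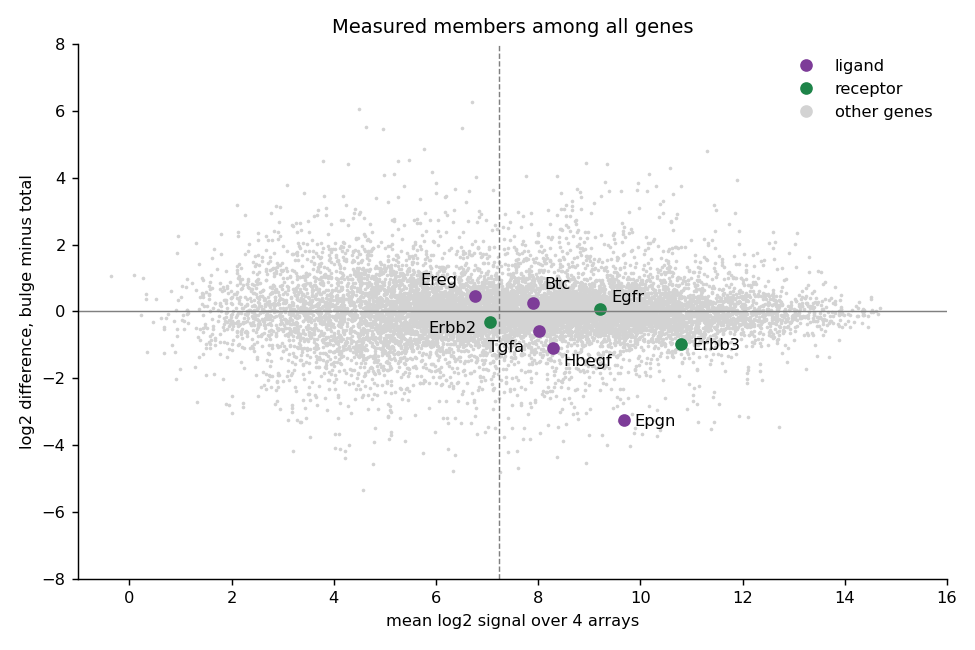
Log2 difference, bulge basal minus total epidermis (y axis), against the mean log2 signal over 4 arrays (x axis) for all 12393 genes in grey, ligands in purple and receptors in green; the dashed line is the background level. Epgn lies toward the lower edge of the cloud at -3.26, Erbb3 and Hbegf lie near -1, and the other 5 lie between -0.57 (Tgfa) and 0.45 (Ereg).

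Other genes of ErbB signalling were taken in 6 lists by role. Of 92 listed genes 74 were measured, and 58 of these had a group mean above background. The principal limma fit called 0 of the 74, and 8 had an unadjusted p under 0.05 (10.8%, against 10.5% of all genes). The trended fit called 2 of the 74, both lower in bulge basal cells: Vav3 and Egr2. Groups did not overlap for 29 of the 74 (39.2%, against 38.5% of all genes), 9 with bulge basal above and 20 below. Over all genes, 18.0% had bulge basal above and 20.5% below, the shares to set beside each list count that follows. A lower mean in bulge basal cells was found for 52 of the 74 (70.3%, against 51.7% of all genes), with a median difference of -0.27, against -0.02 over all genes. This excess rested on bulge basal replicate 2: without that array 39 of the 74 were lower (52.7%, against 49.8% of all genes), with a median of -0.03.

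No further EGF family ligand was above background. Egf, Nrg3 and Nrg4 were below it on all 4 arrays, and Nrg1 and Nrg2 were not analysed here. Among 9 genes that release the ligands or regulate their release, 0 were called in either fit, 3 were lower and 1 higher without overlap, and the list median was -0.16. That median was -0.83 over the genes above background, -0.61 without bulge basal replicate 1 and 0.01 without bulge basal replicate 2. Adam10, a principal ligand sheddase, had signals of 1032 and 1049 in bulge basal cells, against 2096 and 1623 in total epidermis, a difference of -0.83 (adjusted p of 0.574 in the principal limma fit). Adam17, the main sheddase of Tgfa, Areg and Hbegf precursors, had 865 and 213 in bulge basal cells, against 929 and 817 in total epidermis. The Adam17 groups overlapped, since its bulge basal arrays differed widely. Timp3, an inhibitor of both proteases, had a difference of -1.38 (adjusted p of 0.486). Adam8, a metalloprotease of leukocytes, had 77.2 and 63.9 in bulge basal cells, against 397 and 345 in total epidermis. That is at least 2.47-fold lower against the background level, and the trended limma fit gave an adjusted p of 0.0573. Leukocyte markers were lower on the same arrays, and their part in it was not tested.

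Of 15 receptor inhibitors and feedback genes, 0 were called, and 6 were lower and 2 higher without overlap. Spry4, among the 6, was below background on all 4 arrays. The list median was -0.42, or -0.63 without bulge basal replicate 1 and -0.21 without bulge basal replicate 2. Lrig1, a transmembrane protein that lowers ErbB receptor levels and marks stem cells of the isthmus, had signals of 2342 and 643 in bulge basal cells, against 3721 and 2776 in total epidermis. Its difference of -1.39 did not pass (adjusted p of 0.619 in the principal limma fit), and its other 2 probe sets gave -1.38 and, with overlap, -0.06. Ptpn1, a phosphatase that acts on EGFR, had 793 and 771 in bulge basal cells, against 1709 and 2584 in total epidermis, a difference of -1.43 (adjusted p of 0.286), while its other probe set gave -0.34. Sh3kbp1, an adaptor in the internalisation of EGFR, went the other way with 3939 and 2332 in bulge basal cells, against 627 and 1076 in total epidermis, a difference of 1.88 (adjusted p of 0.245). Errfi1, a direct inhibitor of the EGFR kinase, had 11989 and 3249 in bulge basal cells, against 6658 and 8797 in total epidermis, so that its bulge basal arrays enclosed both others.

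Most adaptors and RAS-MAPK genes overlapped between the groups. Of 14 measured, 12 had overlapping groups, 2 were lower without overlap and 0 were called; their differences ranged from -0.74 to 0.33 with a median of -0.30. The median was -0.51 without bulge basal replicate 1, -0.17 with probe sets averaged and close to 0 without bulge basal replicate 2. The 2 without overlap were Rasa1 and Nf1, which both encode brakes on RAS, with a difference of -0.22 for Rasa1. Nf1 had signals of 149 and 142 in bulge basal cells, both below background, against 209 and 198 in total epidermis. Among 16 PI3K-AKT, PLC, STAT and SRC effectors 1 fell, 15 were not called, and 4 were higher and 4 lower without overlap. Pik3cd and Plcg1, among the 4 lower genes, were below background on all 4 arrays. The median of the 16 was -0.06. Limited to genes above background the median had the opposite sign, 0.22 by either group mean and 0.25 by the mean over all arrays.

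Vav3, a signalling protein downstream of receptor tyrosine kinases, had signals of 193 and 102 in bulge basal cells, against 2258 and 1503 in total epidermis. It fell at least 10.8-fold, since bulge basal replicate 2 was below background (difference -3.71 ± 0.44, SE, adjusted p of 0.0337 by trended limma). A second Vav3 probe set was also lower without overlap, below background on both bulge basal arrays, and the third was below background on all 4 arrays. Src, a tyrosine kinase, had 745 and 454 in bulge basal cells, against 227 and 272 in total epidermis, and its second probe set gave a like difference (1.23 and 1.19, adjusted p of 0.411 for the first in the principal limma fit). Pik3r1, a regulatory subunit of PI3K, had a difference of 1.18, and Stat5a, a signal-dependent transcription factor below background on both bulge basal arrays, was at least 1.13-fold lower, and neither passed (adjusted p of 0.517 and 0.522).

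The 16 immediate early response genes, which many stimuli besides EGF induce, had a median of -0.65. It was -0.96 without total epidermis replicate 1 and -0.37 without total epidermis replicate 2. Of these 1 fell, 15 were not called, and groups did not overlap for 7, 2 higher and 5 lower. Egr2, a zinc finger transcription factor, had signals of 193 and 314 in bulge basal cells, against 2437 and 2303 in total epidermis, and fell by 3.27 ± 0.37 on the log2 scale (SE, adjusted p of 0.0297 by trended limma), while its other probe set gave -1.81. Phlda1 had 1569 and 2394 in bulge basal cells, against 384 and 670 in total epidermis, a difference of 1.93 (adjusted p of 0.224 in the principal limma fit). Ier3 had 5071 and 5076 in bulge basal cells, against 1439 and 2836 in total epidermis, a difference of 1.33, and Dusp1, a MAPK phosphatase, had -0.95; neither passed (adjusted p of 0.416 and 0.670). Fos and Egr1 differed widely between replicates of each group: Fos had 2405 and 11925 in bulge basal cells, against 11640 and 26876 in total epidermis, and its groups overlapped.

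**Figure D4:**
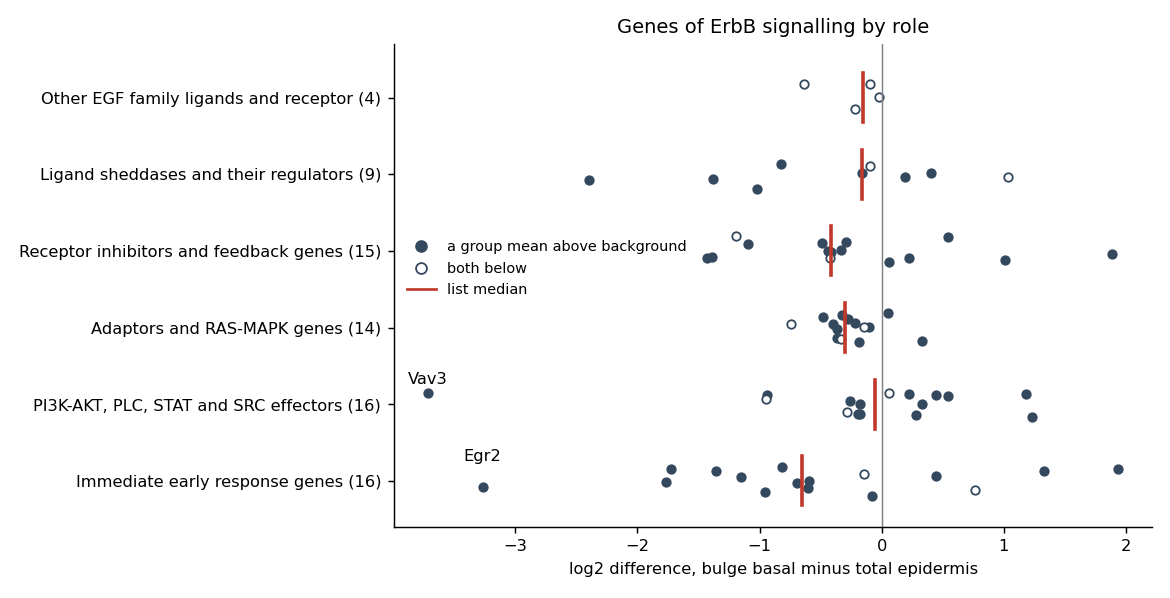
Log2 difference, bulge basal minus total epidermis (x axis), for the 74 measured genes of ErbB signalling by list, with the number measured in brackets; filled points have a group mean above background, open points do not, and the red bar is the list median. Vav3 (-3.71) and Egr2 (-3.27), the 2 genes called in the trended fit, lie far left of their lists.

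The array that moved a member most differed between genes. Hbegf and Tgfa moved most with the total epidermis arrays, and in opposite ways: leaving out replicate 2 brought Hbegf towards 0 (-0.31), while leaving it out took Tgfa away from 0 (-1.12). Btc moved most with the bulge basal arrays, between -0.21 and 0.71. Egfr stayed between 0.01 and 0.11.

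**Figure D5:**
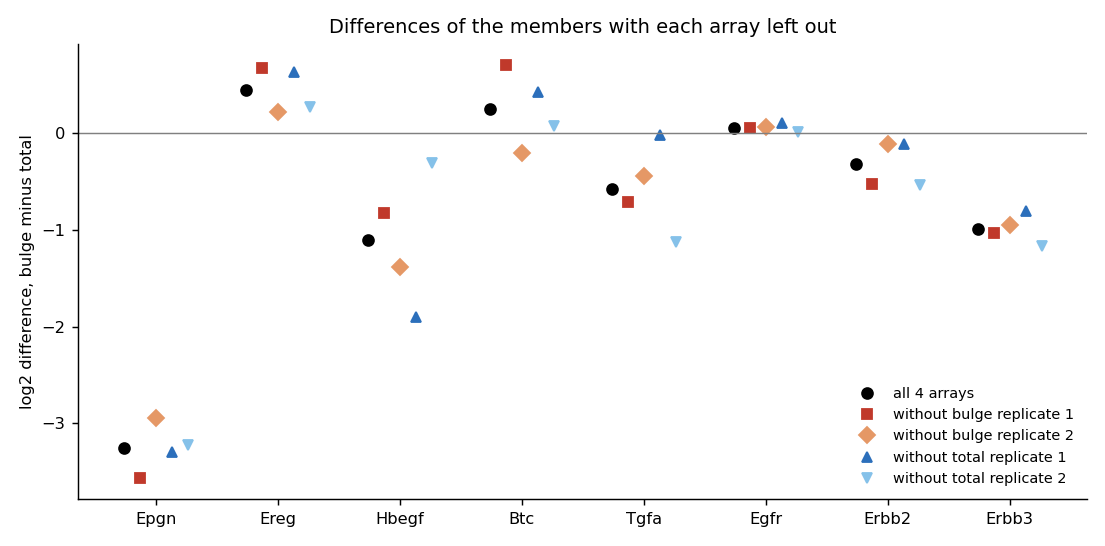
Log2 difference, bulge basal minus total epidermis (y axis), of the 8 measured members with all 4 arrays (black circles) and with each array left out in turn. Epgn stays between -3.57 and -2.95 and Erbb3 between -1.17 and -0.80, while Btc crosses 0.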

How the data were processed

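Signals of sorted cells were compared between 2 bulge basal and 2 total epidermis arrays, grouped by sample title, because the cell type label is the same for all 4. The deposited intensity per probe set is linear and ranges between 0.0546 and 40835. Each array has a 2% trimmed mean of 500.0. The submitters' processing notes list RMA, affy 1.36, R 2.15.1 and GCOS. Which of them made these values is not given in the sources used here, and values at 1 common trimmed mean with unequal quartiles are not RMA output on its log2 scale. From here, log2 of the signal was taken. Gene symbols came from the platform annotation and were brought up to date through Entrez IDs in RefSeq (GRCm38.p6). Of 22690 probe sets, 20380 had 1 symbol, 691 several, 1555 none and 64 were controls. The brightest probe set stood for each of 12393 genes.

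Groups were compared, two-sided, by lmFit and eBayes of limma 3.58.1 under R 4.3.3 (the principal test), with Benjamini-Hochberg adjustment over all genes at 0.05. The fitted differences were checked on simulated data with independent errors. Same-numbered arrays deviated together here, so that check cannot give the rate of false calls in these data. An exact permutation test of 2 against 2 arrays cannot go below 0.333 and was not used. A gene below background on any array of its dimmer group is given as at least N-fold, against the level. The members and lists were chosen with earlier results of these data known. All members were named, with list genes called in either fit and up to 3 per list with the largest differences without overlap above background; Adam17, Errfi1, Fos, Egr1, the melanocyte genes and the genes below background were added after their values were seen. Other settings were an intensity trend, robust variance, median centring, quantile normalization, an offset of 32, removal of dim genes, averaged or separate probe sets, a replicate block and each array left out. The number of arrays limits the precision. The members' differences come from the gene fit and those of second probe sets from a fit over all probe sets.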

Additional observations from a re-analysis of the deposited data

How the results depend on the processing

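The principal limma fit called 0 of 12393 genes, and the number depended on the variance model and on which genes were tested. An intensity trend called 134 genes, 1 member and 2 listed pathway genes. An offset of 32 called 37 genes and 1 member. A filter on the mean over all arrays called 142 genes, 1 member and 3 pathway genes, and a filter on either group mean called 222, 1 and 3; fewer genes are tested under a filter, and the second keeps genes by the higher group. The member was Epgn in each case. The filters left no gene of the further EGF family list, whose median then had no value. A robust variance, median centring, quantile normalization, averaged probe sets and every probe set tested called 0 members. The replicate block called 0 members (Epgn adjusted p of 0.0531), and with an intensity trend it called 917 genes, 1 member and 13 pathway genes. Same-numbered arrays deviated together (r = 0.607 across 6755 genes), and the labels tie replicate numbers to no shared animal or batch, so whether the numbers mark one was not tested. Leaving out 1 array called 0 to 388 genes, 0 to 1 members and 0 to 8 pathway genes over both variance models. A group left with 1 array was assumed to vary like the other. With an intensity trend, the fits without bulge basal replicate 1 and replicate 2 called 388 and 350 genes and 8 and 4 pathway genes, and those without either total epidermis array called 0. Over 19 alternatives Epgn ranged from -3.57 to -2.95 with adjusted p from 4.51e-05 to 0.242, and it passed in 7. Erbb3 ranged from -1.17 to -0.52, the end nearest 0 from averaging with a probe set below background, and passed in 0. Btc ranged from -0.21 to 0.71 with 1 array left out and reversed, to -0.21, without bulge basal replicate 2, and the other 7 members kept their sign wherever they were tested.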
